A study of Nothobranchius furzeri and Iconisemion striatum and Callopanchax occidentalis with 18 samples.

Results

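The miR-200 family was followed in whole killifish embryos through 9 mature miRNAs: miR-200a-5p, miR-200a-3p, miR-200b-5p, miR-200b-3p, miR-200c-3p, miR-141-5p, miR-141-3p, miR-429a and miR-429b. They were taken by name from a table of 291 mature miRNAs counted in 18 small RNA libraries of 8 species. All embryos were labelled as somite stage, the time when the body segments form. Annual killifish pass the dry season as eggs in the mud of seasonal ponds, where the embryo can halt its growth for a time; this halt is diapause.

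Nothobranchius furzeri, annual, gave 5 libraries in diapause. Their strains were MZM0403 in replicate 1, MZM0410 in replicates 2 and 3 and GRZ x MZZW in replicates 4 and 5, with 2 weeks of diapause given for replicate 3, 1 month for replicate 4 and 2 months for replicate 5. Callopanchax occidentalis and Nematolebias papilliferus, both annual and in diapause, gave 1 library each. N. furzeri also gave 3 libraries that were not in diapause, all of strain MZM0410. The species labelled non-annual, none of them in diapause, were Aphyosemion striatum with 4 libraries (Iconisemion striatum in the organism label) and, with 1 library each, Epiplatys dageti monroviae, Rivulus cylindraceus, Austrofundulus leohoignei and Aplocheilus lineatus. The labels give no strain for these other species and do not say whether embryos were pooled or whether replicate libraries stand for different clutches. The p-values below therefore measure spread among these samples, and part of it may be technical.

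In vertebrates the miR-200 family is known for keeping cells epithelial. Its members repress the transcription factors ZEB1 and ZEB2, which switch off E-cadherin and other genes of cell junctions, and ZEB1 and ZEB2 in turn repress the family's own genes. The hairpins are known to lie in a pair of clusters, with miR-200b, miR-200a and miR-429 in one and miR-200c and miR-141 in the other. miR-200b-3p, miR-200c-3p and miR-429 share a seed, the stretch of bases that pairs with target messages, while miR-200a-3p and miR-141-3p share another that differs from it by a single base. In zebrafish the family is known from the olfactory epithelium and other sensory and covering epithelia. A hairpin is cut into a 5p and a 3p strand, and in this family the 3p strand is the one usually described as loaded into the silencing complex.

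The rows miR-429a and miR-429b carry no arm in their names, and they were grouped with the 3p strands because the described mature miR-429 is that strand. miR-200a, miR-200b and miR-141 had rows for both arms, 3 of 75 such hairpins. Mature miRNAs have nearly the same length, so counts were compared between members without scaling for length. An order between members is an order of read counts, and whether each member was captured equally well was not tested.

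Counts assigned to miRNAs totalled 371908 to 4177400 per library. Values in CPM are counts scaled to the effective library size, from 1 TMM scaling over all 18 libraries, whose factors spanned 0.377 in N. furzeri diapause replicate 4 to 2.86 in A. leohoignei, so orders can differ from those by library total alone. The library names carry a lane or pool tag, which is taken here as the sequencing run, though no label names a run. By these tags 8 libraries were in lane 1, 9 in pool 3 and 1 in pool 2. All N. furzeri libraries not in diapause were in pool 3. Those in diapause were in lane 1 (replicates 1 and 2), pool 3 (replicates 3 and 4) and pool 2 (replicate 5). A. striatum replicates 1 to 3 and A. lineatus were in pool 3, and all other libraries were in lane 1. The A. leohoignei library stood apart from the other species labelled non-annual in several values of the family given here. As background, Austrofundulus is a genus otherwise known for annual life cycles, so the tests that use this library are given with and without it.

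The family made up a small part of the miRNA pool. It took 0.0496% ± 0.0240 of counts in N. furzeri in diapause (SD, n = 5), 0.0438% ± 0.00489 in N. furzeri not in diapause (n = 3) and 0.0568% ± 0.0313 in A. striatum (n = 4). Among single libraries the lowest share was in A. lineatus, at 0.0137% of counts (95% Wilson interval 0.0117 to 0.0160%), and the highest in A. leohoignei, at 0.206% (0.197 to 0.214%). In CPM the same 9 miRNAs summed to between 246 in A. lineatus and 781 in C. occidentalis, a narrower range, and A. leohoignei held 720.1. Intervals and detection limits cover counting error only.

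The members were detected unequally. miR-429a gave 29.8% and miR-200a-3p 28.3% of all family counts, and both reached 10 counts in every library. miR-141-3p gave 14.1%, miR-200a-5p 13.9% and miR-200b-3p 10.7%, each with 10 counts or more in 17 libraries. miR-200b-5p, at 1.52%, reached 10 counts in 8 libraries, and miR-200c-3p, at 1.12%, in 4. miR-141-5p (0.409%) and miR-429b (0.111%) stayed under 10 counts in every library, and miR-429b had any count in 7 libraries. A count of 0 allows up to 3 counts, which is 0.856 to 6.39 CPM depending on the library, so the low members cannot be ordered between species.

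**Figure D1:**
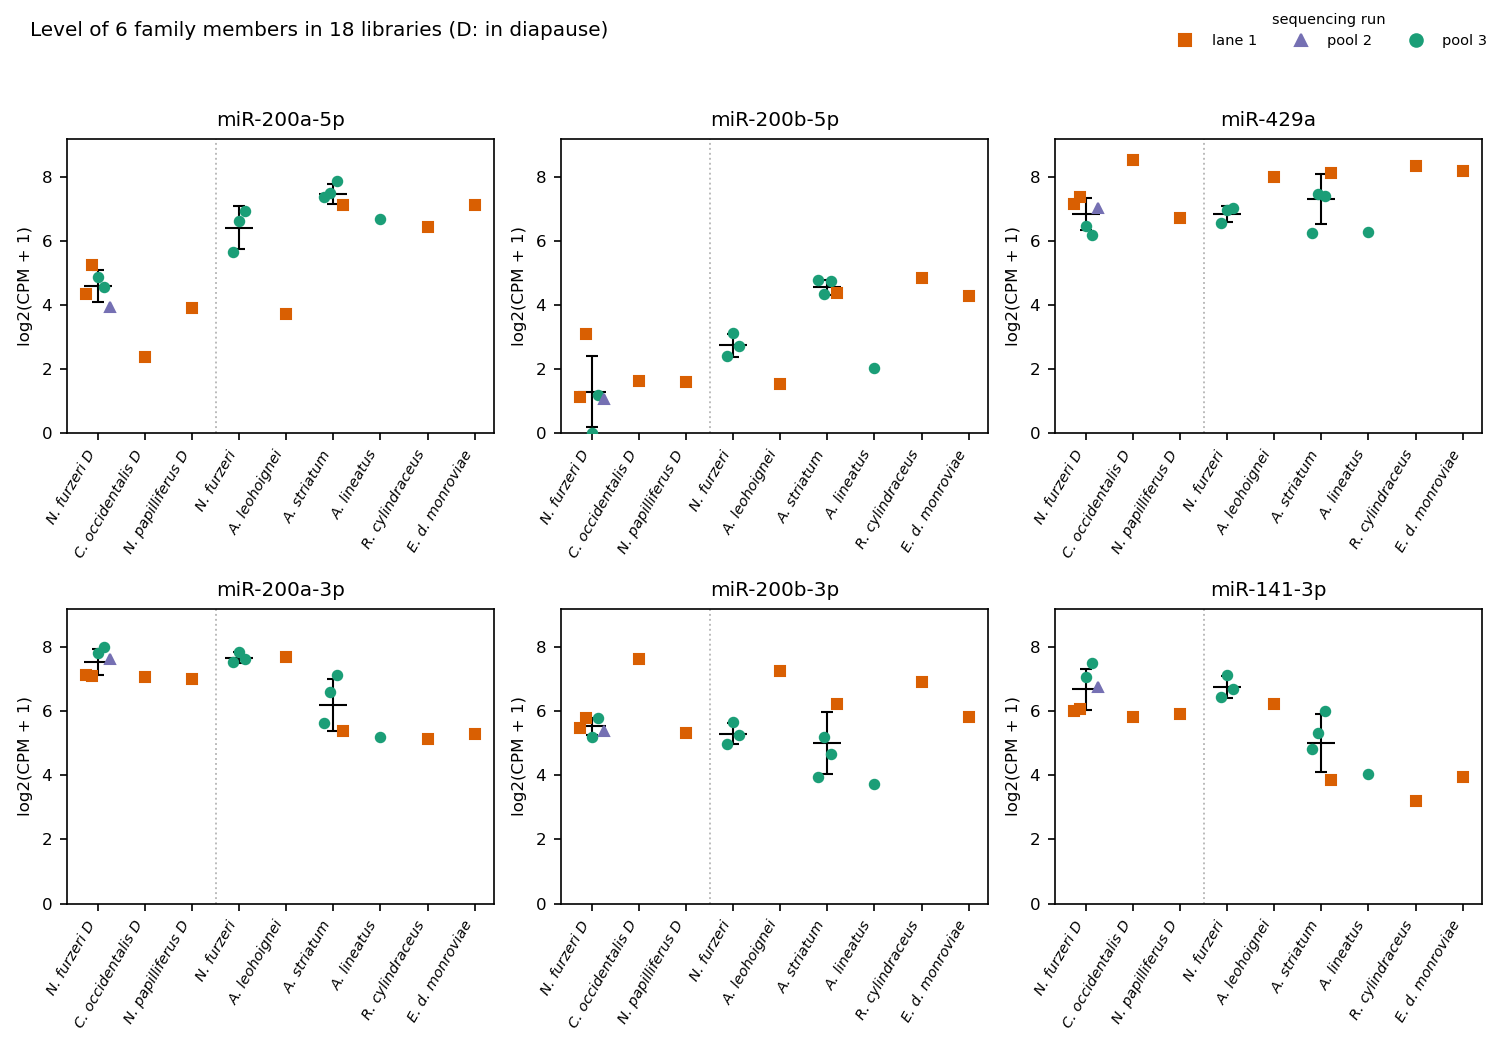
Levels of the 6 members with the most counts, as log2(CPM + 1), in each library of 9 groups (D: in diapause; the dotted line divides diapause libraries from the rest). Points are libraries, coloured by sequencing run, and bars are the mean ± SD on that scale for groups of 3 or more. miR-200a-5p is lowest in the diapause groups and A. leohoignei, the miR-200b-5p values of N. furzeri in and out of diapause overlap, and miR-200a-3p is lowest in R. cylindraceus at 34.2 CPM, close to A. lineatus and E. dageti monroviae.

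Among the members that share the miR-200b seed, miR-429a had the most counts in every library. It had 142, 165, 88.5, 72.4 and 131 CPM in replicates 1 to 5 of N. furzeri in diapause, and 370.5 CPM in C. occidentalis and 104.5 CPM in N. papilliferus, both in diapause. N. furzeri not in diapause had 93.8, 123.8 and 129.5 CPM, A. striatum had 75.5, 176, 169 and 275 CPM, and the single libraries of A. leohoignei, A. lineatus, R. cylindraceus and E. dageti monroviae had 257, 76.9, 321 and 292 CPM. The order by group mean thus began with C. occidentalis, R. cylindraceus and E. dageti monroviae and ended with A. lineatus, and the ranges of N. furzeri in and out of diapause and of A. striatum overlapped one another.

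miR-200b-3p followed miR-429a at a lower level. With 0.5 added to each count, the ratio of miR-429a to miR-200b-3p lay between 1.33 and 6.76 over the 18 libraries. miR-200b-3p averaged 45.8 ± 8.27 CPM in N. furzeri in diapause (SD, n = 5), 39.1 ± 9.38 CPM in N. furzeri not in diapause (n = 3) and 37.1 ± 26.0 CPM in A. striatum (n = 4). Its highest levels were in C. occidentalis (196 CPM), A. leohoignei (152 CPM) and R. cylindraceus (119 CPM), and its lowest in A. lineatus (12.3 CPM, from 8 counts). miR-200c-3p, of the other cluster, had 50 counts (16.1 CPM) in A. leohoignei and 9 counts (19.2 CPM) in C. occidentalis, while A. striatum replicate 1, A. lineatus and E. dageti monroviae held no count of it. miR-429b, a second form of miR-429 in the list, had its largest count in A. leohoignei (8 counts, 2.57 CPM), a level under what a count of 0 allows in C. occidentalis (6.39 CPM).

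The members that share the miR-200a seed kept a narrow ratio to each other. miR-200a-3p had 139.7, 136, 223, 256 and 197 CPM in replicates 1 to 5 of N. furzeri in diapause, against 184, 231 and 197 CPM in N. furzeri not in diapause. It had 134 CPM in C. occidentalis and 128 CPM in N. papilliferus, the other libraries in diapause. A. striatum had 49.2, 95.2, 138 and 40.7 CPM, and A. leohoignei 204, A. lineatus 35.4, R. cylindraceus 34.2 and E. dageti monroviae 38.2 CPM. Every library of an annual species and the A. leohoignei library held 128 CPM or more, whereas of the other libraries only A. striatum replicate 3 did. Scaled to library totals alone this division was lost, with 83.0 RPM in C. occidentalis against 89.6 RPM in E. dageti monroviae.

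miR-141-3p was below miR-200a-3p in every library. With 0.5 added to each count, its ratio to miR-200a-3p was 0.256 to 0.710 (mean log2 ratio -1.12, SD 0.34, n = 18). The log2 ratio of miR-200a-3p to miR-200b-3p, formed in the same way, had an SD of 1.34 over the same libraries. These 2 members are of 1 cluster but of different seeds. Among members of the miR-200b seed, the SD was 0.63 for miR-429a to miR-200b-3p. It was 1.17 for miR-200c-3p to miR-200b-3p, where miR-200c-3p had few counts. A shared seed thus did not always go with a narrow ratio. These ratios are descriptions over libraries that share runs and species. miR-141-3p and miR-200a-3p are known as close relatives, and how a read that matched both was counted is not given in the sources used here, so their separate values are uncertain. miR-141-3p had 63.2, 66.2, 133.5, 181.7 and 106.9 CPM in N. furzeri in diapause, against 86.7, 139 and 103.5 CPM in N. furzeri not in diapause. A. striatum had 27.1, 39.1, 63.9 and 13.6 CPM, all under the lowest N. furzeri library outside diapause.

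**Figure D2:**
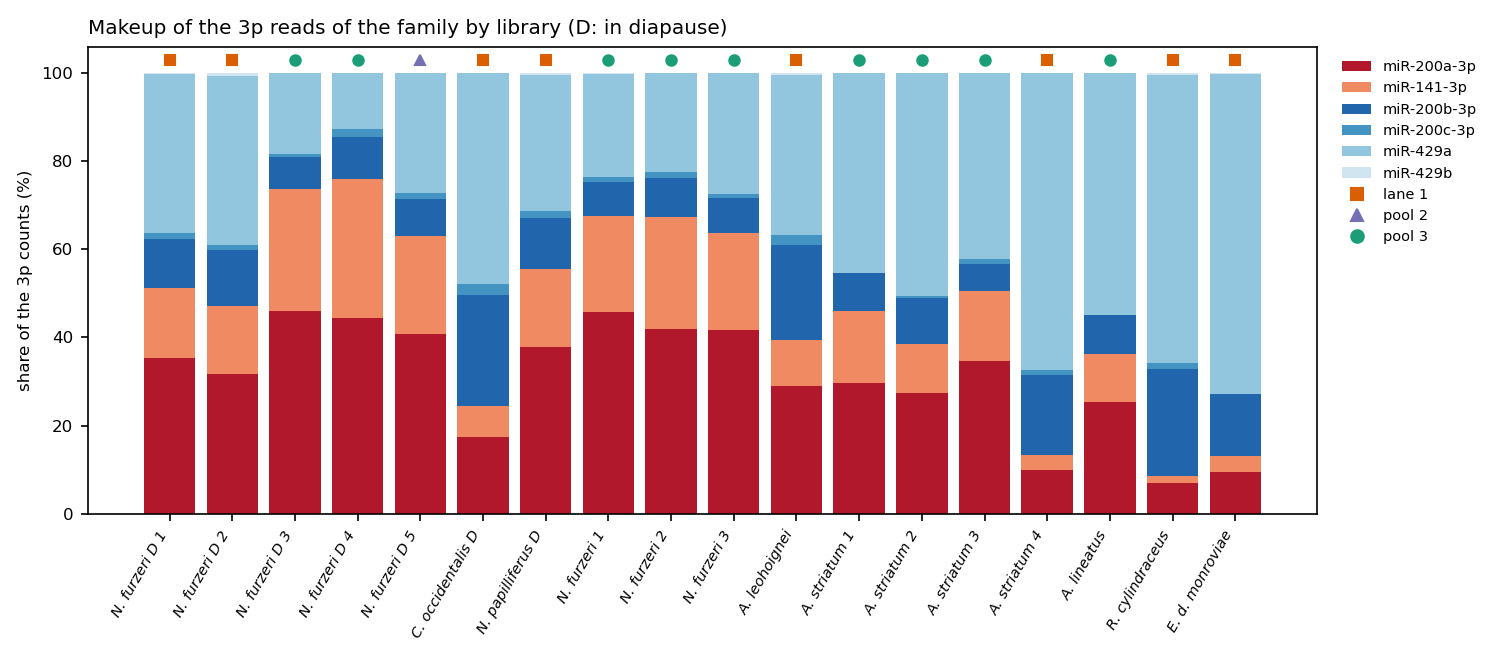
Share of each member in the family's 3p counts (miR-429a and miR-429b included), in percent, for each of the 18 libraries; marks above the bars give the sequencing run. The reds are the miR-200a seed and the blues the miR-200b seed. The reds take 76.1% in N. furzeri diapause replicate 4 and 8.64% in R. cylindraceus.

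The balance between the seeds differed among species. miR-200a-3p and miR-141-3p together took 51.3, 47.2, 73.6, 76.1 and 63.0% of the 3p counts in replicates 1 to 5 of N. furzeri in diapause, and 67.6, 67.3 and 63.7% in N. furzeri not in diapause. They took 45.9, 38.6, 50.6 and 13.3% in A. striatum. The N. furzeri libraries outside diapause all lay above those of A. striatum, while the N. furzeri diapause libraries spread over both. In the other libraries these members took 55.5% in N. papilliferus and 24.5% in C. occidentalis, both in diapause, and 39.4% in A. leohoignei, 36.3% in A. lineatus, 13.1% in E. dageti monroviae and 8.64% in R. cylindraceus.

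The run, as read from the library names, moved with this balance. In N. furzeri in diapause the libraries of lane 1 had the lowest shares (51.3 and 47.2%) and those of pool 3 the highest (73.6 and 76.1%). In A. striatum the single library of lane 1 had 13.3%, against 38.6 to 50.6% in pool 3. Within pool 3 the N. furzeri libraries not in diapause (63.7 to 67.6%) still lay above those of A. striatum. The part of the run in this balance was not tested.

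The 5p strands gave the widest differences of the family. miR-200a-5p had 19.3, 36.9, 28.1, 22.6 and 14.3 CPM in N. furzeri in diapause, against 49.6, 98.6 and 123 CPM in N. furzeri not in diapause. It had 4.26 CPM in C. occidentalis and 14.1 CPM in N. papilliferus, both in diapause. The C. occidentalis value rests on 2 counts and is under the 6.39 CPM that a count of 0 allows there. A. striatum had 164, 179, 233 and 138 CPM, E. dageti monroviae 139.6, A. lineatus 102, R. cylindraceus 86.3 and A. leohoignei 12.2 CPM. In order of group means, A. striatum and E. dageti monroviae came first, A. lineatus, N. furzeri not in diapause and R. cylindraceus were close to each other within the N. furzeri range, and the groups in diapause and A. leohoignei were last.

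miR-200b-5p had 1.21, 7.60, 0, 1.29 and 1.102 CPM in N. furzeri in diapause, where the count of 0 allows up to 1.53 CPM, against 4.28, 7.67 and 5.61 CPM in N. furzeri not in diapause. A. striatum had 26.3, 19.4, 25.9 and 19.6 CPM, above every other library except R. cylindraceus at 27.7 CPM, with E. dageti monroviae next at 18.7 CPM. A. lineatus (3.08 CPM), C. occidentalis (2.13), N. papilliferus (2.01) and A. leohoignei (1.93) rested on 1 to 6 counts each. miR-141-5p had at most 8 counts in any library.

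Because both arms come from 1 hairpin and are read in the same library, the ratio of 5p to 3p does not depend on scaling between libraries. Adapters of small RNA kits are known to join to some ends better than to others, so the ratio was compared between samples and not read as the true balance in an embryo. Of miR-200a reads, 12.2, 21.4, 11.2, 8.12 and 6.77% were 5p in N. furzeri in diapause, and 21.3, 29.9 and 38.4% in N. furzeri not in diapause. In A. striatum 76.9, 65.3, 62.7 and 77.2% were 5p. The 5p strand was thus the smaller part in every N. furzeri library and the larger part in every A. striatum library.

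The single libraries lay on both sides. In A. lineatus 74.2% of miR-200a reads were 5p (66 of 89 reads, 95% Wilson interval 64.2 to 82.1%), in R. cylindraceus 71.6% (60.5 to 80.6%) and in E. dageti monroviae 78.5% (72.6 to 83.5%). In C. occidentalis 3.08% were 5p (0.848 to 10.5%), in N. papilliferus 9.93% (6.01 to 16.0%) and in A. leohoignei 5.65% (4.14 to 7.66%). The larger strand was 5p in all 7 libraries of A. striatum, A. lineatus, R. cylindraceus and E. dageti monroviae, and 3p in all other libraries.

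For miR-200b the 5p share was 2.68, 12.3, 0, 2.33 and 2.63% in N. furzeri in diapause, and 12.2, 13.5 and 13.1% in N. furzeri not in diapause. In A. striatum it was 64.6, 35.0, 51.5 and 21.0%, so the 5p strand was the larger one in replicates 1 and 3, which rest on 48 and 33 reads. It was 1.08% in C. occidentalis, 4.88% in N. papilliferus, 1.26% in A. leohoignei, 20% in A. lineatus (10 reads), 18.9% in R. cylindraceus and 25.0% in E. dageti monroviae. For miR-141 the 3p strand was the larger in all 18 libraries, and the 5p share was at most 28.0%, in A. striatum replicate 4 and in E. dageti monroviae. A change of the larger arm between libraries was not rare among hairpins. Of 27 with an average of at least 10 counts in each arm, 9 had more 3p and 6 more 5p in all 18 libraries. In 12 the larger arm differed between libraries, and these 12 include miR-200a and miR-200b.

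**Figure D3:**
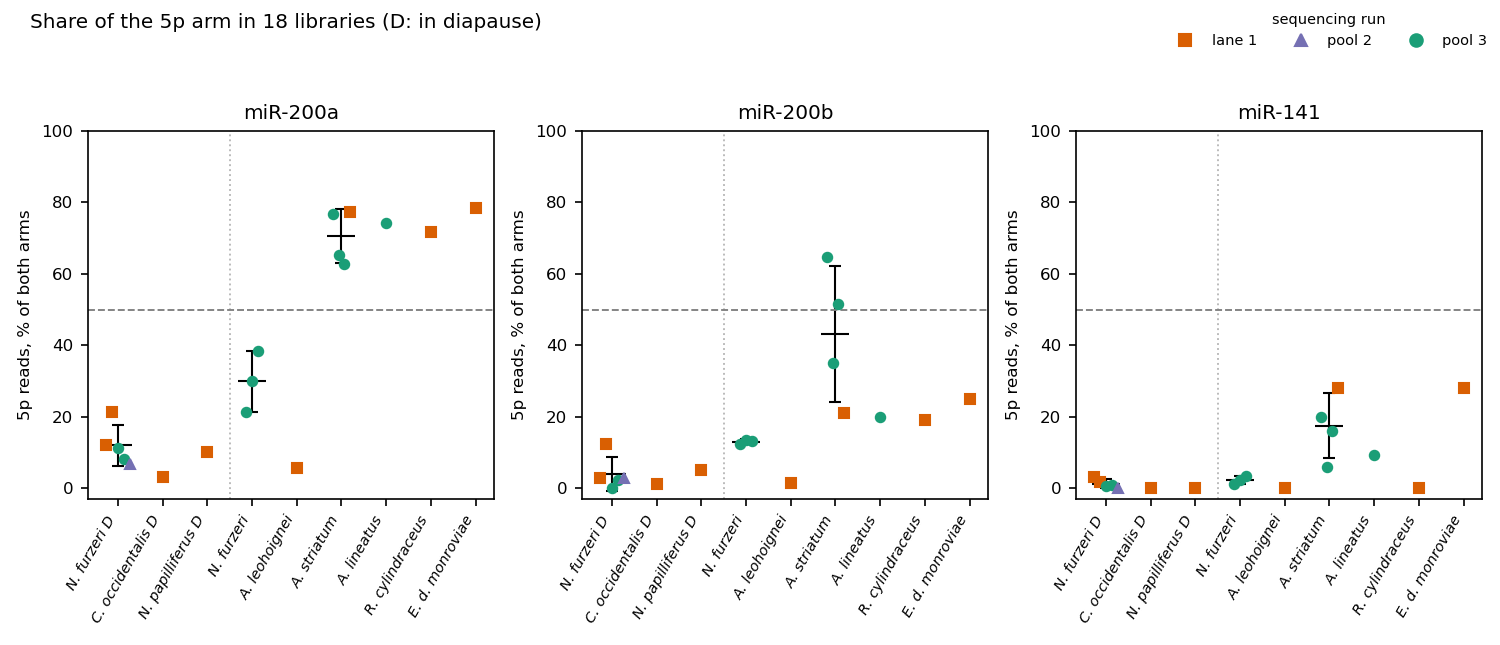
Share of 5p reads among the reads of both arms, in percent, for the 3 hairpins with both arms listed, in each library (D: in diapause; the dashed line marks equal arms and the dotted line divides diapause libraries from the rest). Points are libraries coloured by run and bars are the mean ± SD for groups of 3 or more. For miR-200a the 7 libraries of A. striatum, A. lineatus, R. cylindraceus and E. dageti monroviae lie between 62.7 and 78.5%, and all others at 38.4% or lower.

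The first comparison set N. furzeri in diapause against N. furzeri not in diapause. No member passed edgeR's quasi-likelihood test at an adjusted p under 0.05, and neither did any other miRNA (0 of 163 tested, 0%, with 33 at an unadjusted p under 0.05). 6 of the 9 members had enough counts to be tested, and their median log2 fold change was 0.03, against -0.10 over all miRNAs tested. miR-200b-5p, miR-141-5p and miR-429b were too low for the test. In whole embryos, fewer cells that make a miRNA and less of it per cell cannot be told apart.

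miR-200a-5p had the largest log2 fold change of the tested members by size, with 24.3 ± 8.67 CPM in diapause (SD, n = 5) and 90.4 ± 37.3 CPM outside it (n = 3), a log2 fold change of -1.89 (SE 0.44, edgeR adjusted p = 0.122). All 5 diapause libraries lay below all 3 others in CPM. Groups did not overlap for 18 of the 163 miRNAs tested (11%, both directions). Scaled to library totals alone the ranges of miR-200a-5p overlapped (8.53 to 58.7 RPM in diapause and 41.7 to 94.7 RPM outside it). DESeq2's Wald test gave it a log2 fold change of -1.57 with an adjusted p = 0.0433 and called 2.45% of all miRNAs. Under every alternative run its log2 fold change stayed below 0, between -2.19 and -1.38. DESeq2's was the only call among the 16 alternatives. By edgeR the adjusted p reached 0.582, and with a library left out it was 0.0704 to 0.385.

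The 3p strands and miR-429a passed neither edgeR's nor DESeq2's test. In edgeR's test miR-200a-3p, the partner strand of miR-200a-5p, was at -0.10 on the log2 scale (SE 0.34, adjusted p = 0.916), which turned to between 0.07 and 0.24 under other scalings, DESeq2, the run as a covariate and pool 3 alone. miR-200b-3p had 0.23 (SE 0.36, adjusted p = 0.776), miR-200c-3p 0.30 (SE 0.52, 0.811), miR-141-3p 0.01 (SE 0.44, 0.983) and miR-429a 0.05 (SE 0.38, 0.969), all by edgeR. The ranges of both groups overlapped for each of these 5 members. The standard errors leave room for changes of either sign.

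The arm ratio was tested in 20 hairpins, of which miR-200a was the only one of the family with an average of 10 counts in each arm. Its log2 ratio of 5p to 3p averaged -2.98 ± 0.72 in diapause (SD, n = 5) and -1.26 ± 0.60 outside it (n = 3), a difference of -1.72 (SE 0.53, limma adjusted p = 0.0620). The exact two-sided permutation p was 0.0357, where the smallest this design can give is 0.0179. None of the 20 hairpins passed limma's test (0%, with 7 at an unadjusted p under 0.05). Diapause replicate 2 (21.4% 5p) lay just above replicate 1 of the embryos not in diapause (21.3%), and without diapause replicate 2 the difference was -1.996 with a limma adjusted p = 0.0191. Over 8 fits, each without 1 library, the limma adjusted p was 0.0191 to 0.263, and only 1 was below 0.05. That fit leaves out the library that overlapped, so its p-value is no separate support for a difference. The share of all hairpins called in it is not given here. Strain and run were partly confounded with diapause: within pool 3 the difference was -1.97 (limma adjusted p = 0.0595), and within strain MZM0410 it was -1.16 (limma adjusted p = 0.437).

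**Figure D4:**
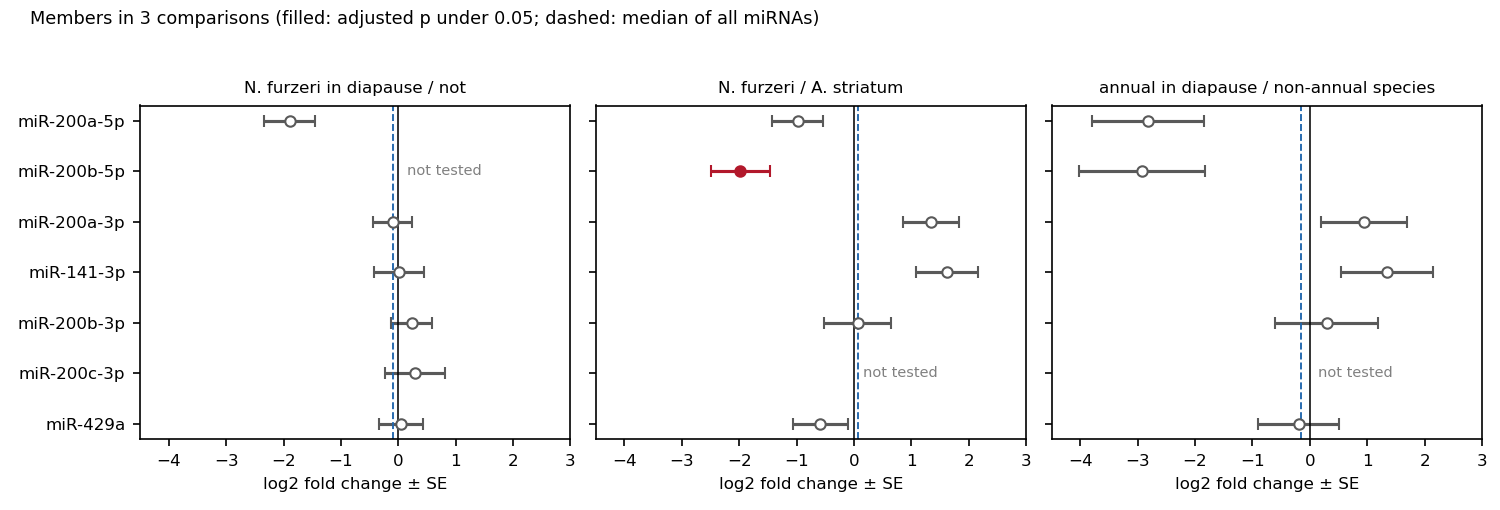
Log2 fold changes with their standard errors (edgeR, horizontal axis) of 7 members in the 3 comparisons, with the first-named group over the second. Filled points have an adjusted p under 0.05 and the dashed line is the median of all miRNAs tested. miR-200b-5p in N. furzeri over A. striatum, at -1.98, is the only filled point.

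The second comparison set N. furzeri, an annual species, against A. striatum, a non-annual one, both not in diapause. It shares the N. furzeri libraries outside diapause with the first comparison, so the results are not independent. miR-200b-5p was lower in N. furzeri, with 5.85 ± 1.71 CPM (SD, n = 3) against 22.8 ± 3.81 CPM in A. striatum (n = 4), which is -1.98 as a log2 fold change (SE 0.52, edgeR adjusted p = 0.0260). It was the 1 member called of 6 tested, while edgeR called 32 of 164 miRNAs, or 19.5%, so the share of members called was near that of all miRNAs. With 15, 7 and 11 counts in the N. furzeri libraries, miR-200b-5p passed the count filter through A. striatum, where it was high. The call was lost when any of the N. furzeri libraries or A. striatum replicate 1 was left out, with adjusted p between 0.0652 and 0.112 by edgeR, while the log2 fold change stayed between -2.19 and -1.78.

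miR-200a-3p averaged 204 ± 24.5 CPM in N. furzeri and 80.9 ± 45.2 CPM in A. striatum, or 1.34 on the log2 scale (SE 0.49, edgeR adjusted p = 0.0864). miR-141-3p averaged 109.8 ± 26.7 CPM in N. furzeri and 35.9 ± 21.4 CPM in A. striatum, 1.62 on the log2 scale (SE 0.54, edgeR adjusted p = 0.0670). These are the members of the miR-200a seed, and both passed DESeq2's Wald test (adjusted p = 0.0473 and 0.0256), which called 25% of all miRNAs. miR-200a-5p averaged 90.4 ± 37.3 CPM in N. furzeri and 178 ± 40.01 CPM in A. striatum, or -0.98 as a log2 fold change (SE 0.45, edgeR adjusted p = 0.144).

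The libraries of N. furzeri and A. striatum did not overlap for 4 of the 6 members tested, with miR-200a-3p and miR-141-3p higher and miR-200a-5p and miR-200b-5p lower in N. furzeri. Among all 164 miRNAs tested 39% had groups that did not overlap. The miR-200b seed showed no such separation: in edgeR's test miR-200b-3p was at 0.06 on the log2 scale (SE 0.59, adjusted p = 0.951) and miR-429a -0.59 (SE 0.48, adjusted p = 0.391). miR-200c-3p, miR-141-5p and miR-429b were too low for the test.

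Both hairpins of the family that could be tested had a lower 5p to 3p ratio in N. furzeri. For miR-200a the log2 ratio averaged -1.26 ± 0.60 in N. furzeri (SD, n = 3) and 1.28 ± 0.53 in A. striatum (n = 4), a difference of -2.55 (SE 0.59, limma adjusted p = 0.00642, exact permutation p = 0.0286, the smallest this design can give). For miR-200b it averaged -2.69 ± 0.10 in N. furzeri and -0.46 ± 1.19 in A. striatum, a difference of -2.23 (SE 0.68, limma adjusted p = 0.0185, exact permutation p = 0.0571). The libraries of both species did not overlap for either hairpin. That held for 15 of the 25 hairpins tested, with 12 lower and 3 higher in N. furzeri. Limma called 12 of the 25 hairpins tested, 48%, of which 9 were lower and 3 higher in N. furzeri, so lower 5p shares were not particular to the family.

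The miR-200a difference was called by limma without each library in turn. The miR-200b call was lost without N. furzeri replicate 1 (limma adjusted p = 0.0696) or replicate 3 (0.0612). With exact permutation p-values adjusted over the 25 hairpins, neither was called (0.0893 and 0.0952). Within pool 3, which leaves out the A. striatum library of lane 1, the differences were -2.39 for miR-200a and -2.71 for miR-200b, and both were called by limma (adjusted p = 0.00262 and 0.00181). The share of all hairpins called within pool 3 is not given here. All species were counted against the same list, so a strand whose sequence differs in a species can lose reads, and whether either strand does so in A. striatum was not tested.

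**Figure D5:**
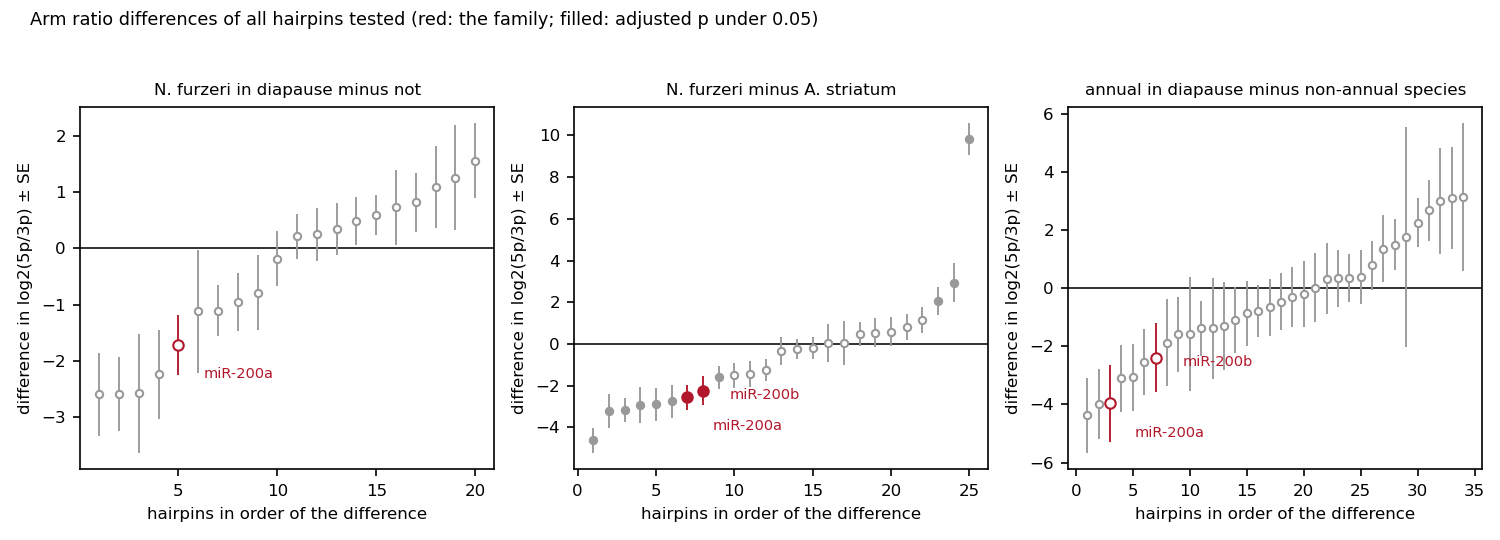
Differences in the log2 ratio of 5p to 3p with their standard errors (limma, vertical axis) for every hairpin tested in the 3 comparisons, in order of the difference; the first-named group minus the second. Red points are miR-200a and miR-200b, and filled points have an adjusted p under 0.05. miR-200a lies below 0 in each panel, at -1.72, -2.55 and -3.96.

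The third comparison took species as replicates and set the annual species in diapause (N. furzeri in diapause, C. occidentalis and N. papilliferus, n = 3) against the 5 species labelled non-annual. In it, being annual and being in diapause cannot be told apart, and it shares the N. furzeri diapause libraries with the first comparison and the A. striatum libraries with the second. No member of 6 tested passed edgeR's test, nor did any of the 173 miRNAs (0%, with 20 at an unadjusted p under 0.05). In CPM no member's species ranges were separate, while 11 miRNAs (6.36%) had separate ranges. The 5p strands had the largest fold changes of the members. miR-200a-5p averaged 14.0 ± 9.71 CPM in the annual species in diapause and 102 ± 60.6 CPM in the non-annual species, a log2 fold change of -2.82 (SE 0.98, edgeR adjusted p = 0.319), and passed DESeq2's Wald test (adjusted p = 0.0294), which called 5.78% of miRNAs. Scaled to library totals alone, the species of both groups did not overlap for it (2.64 to 18.7 RPM in the annual species in diapause and 34.9 to 328 RPM in the non-annual species). The 2.64 RPM, in C. occidentalis, rests on 2 counts. The share of all miRNAs with separate ranges under this scaling is not given here. miR-200b-5p averaged 1.93 ± 0.242 CPM in the annual species in diapause and 14.6 ± 11.5 CPM in the non-annual species, -2.92 on the log2 scale (SE 1.097, edgeR adjusted p = 0.319). With 1 count in C. occidentalis and 2 in N. papilliferus, miR-200b-5p passed the count filter through the non-annual species, where it was high.

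The 3p strands gave log2 fold changes of 1.34 for miR-141-3p (SE 0.80, edgeR adjusted p = 0.502), 0.94 for miR-200a-3p (SE 0.75, 0.536) and 0.29 for miR-200b-3p (SE 0.90, 0.879), with -0.19 for miR-429a (SE 0.70, 0.899). The median over all miRNAs tested was -0.16. With library totals in place of TMM that median moved to -1.19, miR-200a-3p to -0.42 and miR-200b-3p to -1.28.

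The miR-200a arm ratio averaged -3.60 ± 0.93 on the log2 scale in the annual species in diapause (SD, n = 3 species) and 0.36 ± 2.47 in the non-annual species (n = 5), a difference of -3.96 (SE 1.33, limma adjusted p = 0.131, exact permutation p = 0.107). For miR-200b the ratios averaged -4.88 ± 0.99 in the annual species in diapause and -2.49 ± 2.12 in the non-annual species, a difference of -2.39 (SE 1.19, limma adjusted p = 0.268, exact permutation p = 0.143). These miR-200b ratios rest on 5p counts of 1 in C. occidentalis, 2 in N. papilliferus, 0 to 7 per N. furzeri diapause library and 2 in A. lineatus. The hairpin reached the minimum average of 10 5p counts through A. striatum, R. cylindraceus and E. dageti monroviae. None of 34 hairpins was called (0%, with 8 at an unadjusted p under 0.05). The A. leohoignei library had -4.04 for miR-200a, within the values of the annual species, and -6.18 for miR-200b, below all of them.

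Without A. leohoignei the difference was -5.06 for miR-200a (SE 0.70, limma adjusted p = 0.00138) and -3.31 for miR-200b (SE 0.68, adjusted p = 0.00659), with 3 against 4 species. The miR-200b ratios again rest on the few 5p counts given above. Each had an exact permutation p = 0.0286, the smallest that number of species can give, and 6 of the 34 hairpins were called, 17.6%. In 8 fits with 1 species left out, miR-200a was called in 1, this one. A. leohoignei was flagged as apart on these same ratios. The p-values without it, or with its label changed, are therefore no separate support for a difference. By edgeR miR-200a-5p then had a log2 fold change of -3.10 (adjusted p = 0.0839) and miR-200b-5p of -3.23 (adjusted p = 0.0966). The 3p strands then had 2.03 for miR-141-3p (edgeR adjusted p = 0.124), 1.69 for miR-200a-3p (0.136) and 0.71 for miR-200b-3p (0.646), with -0.14 for miR-429a (0.881), and no member was called. With A. leohoignei counted as annual, a choice that goes against its label, the arm differences were -5.17 for miR-200a and -3.64 for miR-200b (limma adjusted p = 0.000150 and 0.00193). With the N. furzeri libraries from outside diapause in place of those in diapause they were -3.39 and -1.74 (limma adjusted p = 0.286 and 0.566). Within lane 1 alone they were -3.66 and -1.69 (limma adjusted p = 0.208 and 0.431).

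Lists of miRNAs known from epithelia and from other tissues were read in the same libraries. The skin list (6 rows of miR-203 and miR-205, known from epidermis) summed to 7558 to 17699 CPM in N. furzeri in diapause and 12592 to 26261 CPM in N. furzeri not in diapause, and its 4 tested rows had a median log2 fold change of -0.84 with none called. In A. striatum it summed to 9683 to 23220 CPM. The sensory list (6 rows of miR-182, miR-183 and miR-96) summed to 803 to 6393 CPM in N. furzeri in diapause, 1506 to 2861 CPM in N. furzeri not in diapause and 681 to 1987 CPM in A. striatum, with none called in any comparison. In each library 4 to 6 of the skin rows and 3 to 6 of the sensory rows had a count. The muscle list (9 rows of miR-1, miR-133 and miR-206) summed to 66.2 to 204 CPM in N. furzeri in diapause, 84.3 to 168 CPM in N. furzeri not in diapause and 75.4 to 263 CPM in A. striatum, with none called. The neural list (8 rows of miR-124 and miR-9) summed to 66.2 to 3621 CPM in N. furzeri in diapause. Only replicate 1 was that high, and the next highest, replicate 5, had 337 CPM. The neural list summed to 148 to 181.8 CPM in N. furzeri not in diapause and 276 to 578 CPM in A. striatum. In N. furzeri not in diapause the list averaged 161 CPM, of which miR-9-5p gave 152.5 CPM and miR-124-3p 4.45 CPM. Of the 3 rows of this list tested in N. furzeri against A. striatum, edgeR called 1 lower in N. furzeri. That row was miR-124-5p, with 1.33 CPM in N. furzeri against 11.7 CPM in A. striatum (edgeR adjusted p = 0.0256). It passed the count filter through A. striatum, where it was high. The partner strand miR-124-3p, at 4.45 and 5.72 CPM, was too low for the test. In that comparison edgeR called 32 of all 164 miRNAs (19.5%). It called 0 of 163 in N. furzeri in and out of diapause and 0 of 173 in the comparison of species. There, the absence of calls was not particular to these lists. No skin row was without counts throughout N. furzeri in diapause, N. furzeri not in diapause or A. striatum. Among the other lists miR-133a-2-5p had no count in any N. furzeri library, miR-182-3p and miR-124-6-5p had none in N. furzeri not in diapause and in A. striatum, and miR-96-3p and miR-9-4-3p had none in N. furzeri not in diapause. In the single libraries the skin list summed to 5464 CPM in C. occidentalis and 7557 in N. papilliferus, both in diapause, and to 9606 in A. leohoignei, 14727 in A. lineatus, 14631 in R. cylindraceus and 8685 in E. dageti monroviae. The muscle list summed to 1265 CPM in C. occidentalis and 615 in N. papilliferus, and to 80.3 in A. leohoignei, 1094 in A. lineatus, 45.6 in R. cylindraceus and 245 in E. dageti monroviae. The sensory list summed to 3756 CPM in C. occidentalis and 2265 in N. papilliferus, and to 619 in A. leohoignei, 4805 in A. lineatus, 448 in R. cylindraceus and 1708 in E. dageti monroviae. Among the single libraries the highest muscle and sensory sums were in C. occidentalis, N. papilliferus and A. lineatus, on both sides of the comparison of species. The highest sensory sum of all libraries, 6393 CPM, was in N. furzeri diapause replicate 1. The neural list summed to 292 and 287 CPM in C. occidentalis and N. papilliferus, and to 91.2 to 383 CPM in the non-annual single libraries. The part of cell type make-up in the family's differences was not tested.

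The miRNAs whose levels over the 18 libraries were most like the summed 3p level of the family, among 97 with an average of at least 50 CPM, were miR-30b (Spearman's rho 0.756, Pearson's r 0.700), miR-30d (0.692 and 0.800), miR-722 (0.598 and 0.578), miR-128-3p (0.589 and 0.632) and miR-26a-5p (0.571 and 0.748). The median rho of the candidates was -0.0382. These values describe libraries that share species, runs and scaling, and they were chosen for being high.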

How the data were processed

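The authors deposited counts of reads per library for each mature miRNA, not normalized, and RPM values that equalled counts over library totals (100% of values within 0.001 RPM). Reads of 18 to 33 nt were kept after filtering and trimming, per the file headers. The submitters' processing notes list Bowtie 1.0.0 and 1.1.2, CASAVA 1.8.2 and bcl2fastq 1.8.3. Not given in the sources used here are the reference list, the mismatches allowed and how reads with several matches were counted. The share of reads counted on miRNAs was 1.43 to 77.3% per library. It was lowest in E. dageti monroviae (1.43%), N. furzeri diapause replicate 2 (3.02%), R. cylindraceus (3.78%) and A. striatum replicate 4 (6.29%). These are all of lane 1, where other libraries reached up to 55.7%. The part of this share in the family's values was not tested. A total row was left out, as were 2 columns matching no sample. Samples were grouped by the labels, and replicate numbers follow sample order. Mature sequences and genomic positions were not used here.

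The counts were used throughout, in R 4.3.3. edgeR 4.0.16 was run with filterByExpr (minimum count 10), 1 TMM scaling over 18 libraries, the quasi-likelihood test and Benjamini-Hochberg adjustment over all miRNAs tested (threshold 0.05). In the comparison of species, counts and effective library sizes were summed per species. Arm ratios, log2 of (5p count + 0.5) over (3p count + 0.5), were tested with limma 3.58.1 (eBayes with trend) over hairpins averaging at least 10 counts in each arm. For single ratios, two-sided exact permutation tests were added. Alternatives were other scalings and filters, DESeq2 1.42.0, run, strain and left-out libraries or species; the arm ratios with A. leohoignei as annual or with N. furzeri not in diapause were added after seeing the data. The scripts were tested on simulated data. All 9 members are named; 5 other miRNAs were named by likeness to the summed 3p level. The members and lists were chosen with earlier results of these data known. Replicate libraries differed from each other by more than counting noise in every pair.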

Additional observations from a re-analysis of the deposited data

Results flagged for a closer look

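Of 38 sets of 4 to 10 values examined for a value far from the rest, 5 held one. The limit used flags about 1 in 20 sets by chance when sets are independent. These sets reuse the same libraries and counts, so the number flagged cannot be set against that rate. In N. furzeri in diapause, replicate 2 had 7.60 CPM of miR-200b-5p (7 counts), and the next highest of the 5 libraries had 1.29 CPM.

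The other values were of A. leohoignei among the species labelled non-annual. Its library had 204 CPM of miR-200a-3p, where the next highest species had 77.8 CPM. Its log2 ratio of 5p to 3p was -4.04 for miR-200a (next lowest 1.15) and -6.18 for miR-200b (next lowest -2.07). For miR-141 the value was -8.86 (next lowest -3.46, in R. cylindraceus), but neither library had a 5p count, so both values are set by the added 0.5 and by the 3p counts (232 and 5) and show no difference in the arm ratio. It was the 1 library of that species, so whether the values belong to the species or to the library was not tested.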

How the results depend on the processing

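No paired analysis was possible because the labels give no replicate numbers. The run as a covariate was not run for species sums, which mix runs. Where the value moved, the cause was not tested.

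The members called in N. furzeri in and out of diapause numbered 0, and 1 with DESeq2. In N. furzeri against A. striatum they numbered 1, and 0 with no filter (miR-200b-5p adjusted p = 0.0527), 0 at 50 CPM or more (its level is below that), 3 with DESeq2 and 0 to 3 with a library left out. In that comparison the calls over all miRNAs numbered 32, and 6, 17 and 5 without N. furzeri replicates 1, 2 and 3, 8 without A. striatum replicate 1 and 17 at 50 CPM or more. DESeq2 called 25% of all miRNAs in it. For the fit that called 3 members with a library left out, the calls over all miRNAs are not given here. In the annual species in diapause against the non-annual species 0 members were called, and 1 with DESeq2 or with A. leohoignei as annual. There DESeq2 called 5.78% of all miRNAs, and the share of all miRNAs called with A. leohoignei as annual is not given here.

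The family's hairpins with a called arm ratio numbered 0 in N. furzeri in and out of diapause. With a library left out they numbered 0 to 1, the 1 without diapause replicate 2, where the share of all hairpins is not given here. Against A. striatum they numbered 2, where 12 of all 25 hairpins (48%) were called. There they numbered 1 at 50 counts per arm or more, 0 by exact permutation and 1 to 2 with a library left out. In the comparison of species they numbered 0, and 0 to 2 with a species left out and 2 with A. leohoignei as annual. The 2 were without A. leohoignei, where 6 of all 34 hairpins (17.6%) were called. The share of all hairpins called with A. leohoignei as annual is not given here. Without the 10 most abundant miRNAs the family's share was 0.780% in N. furzeri in diapause, 0.675% in N. furzeri not in diapause and 0.721% in A. striatum. By effective library size it was 0.0501%, 0.0572% and 0.0538% in these groups, so N. furzeri not in diapause, lowest by share of counts, had the highest mean.

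Signs turned for members near 0, and in the comparison of species also for miR-200a-3p, at 0.94 in the main fit. In N. furzeri in and out of diapause, miR-200a-3p had a log2 fold change of 0.17 with DESeq2's size factors, 0.16 with library totals, 0.070 with TMM within the comparison, 0.16 with DESeq2, 0.23 with the run as a covariate and 0.24 in pool 3. With a library left out it ranged from -0.23 to 0.0022, miR-429a from -0.092 to 0.19, miR-141-3p from -0.25 to 0.21 and miR-200c-3p from -0.017 to 0.47. miR-429a was -0.52 with the run as a covariate and in pool 3, and miR-141-3p was -0.12 in strain MZM0410. In N. furzeri against A. striatum, miR-200b-3p was -0.11 with size factors, -0.69 with library totals, -0.012 with TMM within the comparison, -0.021 with DESeq2 and -0.21 to 0.63 with a library left out. In the comparison of species miR-200a-3p was -0.42 and miR-200b-3p -1.28 with library totals, and miR-200b-3p -0.10 in lane 1. With a species left out miR-200b-3p ranged from -0.85 to 0.71 and miR-429a from -1.03 to 0.11. Library totals moved the median of all miRNAs to 0.20 (TMM -0.10), to -0.33 (TMM 0.07) and to -1.19 (TMM -0.16) in the 3 comparisons.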
